A study of Homo sapiens with 12 samples.

Results

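Some of the genes described here encode proteins of the cornified envelope, the protein shell of squamous epithelial cells. Others encode transglutaminases, which join proteins to each other, or calmodulin-like proteins. The genes of the envelope are the small proline-rich genes SPRR1A, SPRR1B, SPRR2A, SPRR2D and SPRR3 and the involucrin gene IVL. The transglutaminase genes are TGM1 and TGM2, and the calmodulin-like genes are CALML3 and CALML5. The members were chosen by gene name, as every probe annotated to these 10 genes, which gave 13 of the 47323 probes on the array. The arrays were Illumina bead arrays, on which a gene is read as the brightness of beads that carry its probe. A probe was kept where 3 or more of the 12 arrays detected it at p below 0.05, which 12 of the 13 did, and all 10 genes were among the 13293 genes tested.

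The cells came from UM-UC9 and UM-UC14, established human lines of urothelial (bladder) cancer. UM-UC9 cells were either untreated controls or given 1 µM rosiglitazone, an activator of the nuclear receptor PPARG, for 24 hours. UM-UC14 cells carried a short hairpin RNA (shRNA), either a non-targeting one or one directed at FABP4, a fatty acid carrier protein. Each of these 4 groups held 3 arrays. The labels name no solvent control and no number of hairpins, and do not say whether the shRNA cells were a pool or 1 clone. Nor do they say whether replicates were separate cultures, so p-values measure a spread that may be technical.

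In stratified squamous epithelia such as the epidermis, the cornified envelope replaces the cell membrane as a cell matures. Involucrin forms an early layer under the membrane, SPRR proteins act as cross-bridges, and transglutaminases link these proteins by bonds between glutamine and lysine residues. The normal urothelium does not cornify, but bladder cancers with squamous features can express these genes. The SPRR genes and IVL lie beside each other in the epidermal differentiation complex on chromosome 1, while CALML3 and CALML5 are neighbours on chromosome 10.

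The upstream sequences of the clustered genes are shown because these neighbours responded to rosiglitazone by very different amounts. Each run below is the 250 bases before the RefSeq start site in GRCh38.p14, read 5′ to 3′ on the strand of the gene. Capitals mark matches to the motifs searched on both strands.

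SPRR1A (chr1:152983831-152984080, plus strand): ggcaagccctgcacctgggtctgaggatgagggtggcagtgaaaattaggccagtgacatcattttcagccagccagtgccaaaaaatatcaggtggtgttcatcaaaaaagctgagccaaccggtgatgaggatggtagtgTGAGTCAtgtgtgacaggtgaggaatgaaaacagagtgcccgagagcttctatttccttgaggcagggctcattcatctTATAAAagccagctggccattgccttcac
SPRR1B (chr1:153030953-153031202, plus strand): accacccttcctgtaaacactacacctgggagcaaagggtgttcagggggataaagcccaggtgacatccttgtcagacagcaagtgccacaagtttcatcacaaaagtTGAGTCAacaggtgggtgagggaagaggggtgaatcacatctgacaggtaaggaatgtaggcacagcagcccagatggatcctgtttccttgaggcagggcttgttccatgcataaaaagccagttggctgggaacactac
SPRR2A (chr1:153057513-153057762, minus strand): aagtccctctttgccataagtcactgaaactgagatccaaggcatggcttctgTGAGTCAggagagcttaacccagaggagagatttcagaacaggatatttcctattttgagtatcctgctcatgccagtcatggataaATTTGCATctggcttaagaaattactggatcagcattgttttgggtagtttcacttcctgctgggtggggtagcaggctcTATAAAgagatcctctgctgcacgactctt
SPRR3 (chr1:153001499-153001748, plus strand): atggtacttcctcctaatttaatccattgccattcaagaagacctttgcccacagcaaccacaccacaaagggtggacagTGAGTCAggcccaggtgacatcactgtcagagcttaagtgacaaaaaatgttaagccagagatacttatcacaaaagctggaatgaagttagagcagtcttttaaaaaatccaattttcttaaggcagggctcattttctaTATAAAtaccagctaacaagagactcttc
IVL (chr1:152908296-152908545, plus strand): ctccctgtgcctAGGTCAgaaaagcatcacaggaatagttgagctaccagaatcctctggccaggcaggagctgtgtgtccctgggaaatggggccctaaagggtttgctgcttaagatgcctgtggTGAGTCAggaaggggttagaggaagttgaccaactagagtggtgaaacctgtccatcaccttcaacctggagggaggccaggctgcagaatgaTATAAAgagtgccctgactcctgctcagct

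The motifs searched were the AP-1 site TGAGTCA, the TATA motif TATAAA, the octamer ATTTGCAT, the nuclear receptor site AGGTCA, and a pair of AGGTCA sites in the same direction with 1 base between them, the form that PPARG binds with its partner RXR. The pair contains the single site, and no other matches overlapped in these windows. An AP-1 match stood in each of these 5 windows, beginning 108 bases before the start site in SPRR1A, 141 in SPRR1B, 197 in SPRR2A, 170 in SPRR3 and 123 in IVL. Such a match was in 4.2% of the 35116 promoter windows of the same length in the table. The TATA motif, in 10.7% of all windows, was in 4 of the 5 and not in that of SPRR1B. The octamer, in 1.63% of all windows, was in that of SPRR2A alone among them. The AGGTCA site, in 12.1% of all windows, was in that of IVL alone, and none of the 5 held the pair (0.0171% of all windows). The windows of CALML3 and CALML5, 7 members with a window in all, held no match to any of the 5 motifs. SPRR2D, TGM1 and TGM2 had no entry.

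Between 20892 and 22407 probes were detected on an array, and arrays of a group correlated at r of 0.984 to 0.997 over the tested genes. FABP4 stood at 10.82 to 11.06 in UM-UC9 controls and 14.61 to 14.71 with rosiglitazone, and at 13.94 to 14.13 with non-targeting and 10.13 to 10.50 with FABP4 shRNA, in normalized log2 intensity. Replicate 1 of the non-targeting shRNA stood apart: it correlated at 0.988 with the mean of the other non-targeting arrays and at 0.989 with that of the knockdown arrays. Of 15 urothelial and epithelial markers, 12 to 14 were detected on each array, but UPK3A on none and UPK1A on no UM-UC9 array. Detected on no array were 3 of 7 fibroblast, 3 of 8 blood and endothelial and 2 of 4 adipocyte markers. These were COL3A1, PDGFRA, PDGFRB, PTPRC, CD3E, VWF, ADIPOQ and PLIN1. LUM, PECAM1 and LEP, of the same lists, were detected on every array. COL1A2 was detected on every UM-UC9 array, and COL1A1 and CDH5 on every UM-UC14 array.

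Rosiglitazone changed most of these genes in UM-UC9. SPRR2D, TGM2 and SPRR2A fell, with log2 fold changes of -3.53, -3.21 and -2.69, SPRR1B (-1.34) and SPRR3 (-0.74) fell by less, and CALML5 rose (0.73). In all, 8 of the 10 genes passed the threshold, an adjusted p below 0.05 in limma, with 2 higher and 6 lower, where 36.0% of all tested genes passed (17% higher and 19% lower). Under median scaling 6 passed, 1 of them higher, and SPRR1A and IVL lost their calls. The 3 arrays of each group did not overlap for 9 of the 10, CALML3 with its undetected values among them, against 53.9% of all genes. The median log2 change of the 10 was -0.56 and that of all genes -0.02. A fall of at least 2 log2 units was rare, in 0.166% of genes (22 of 13293). In these bulk samples, fewer cells expressing a gene and less RNA per cell cannot be told apart.

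**Figure D1:**
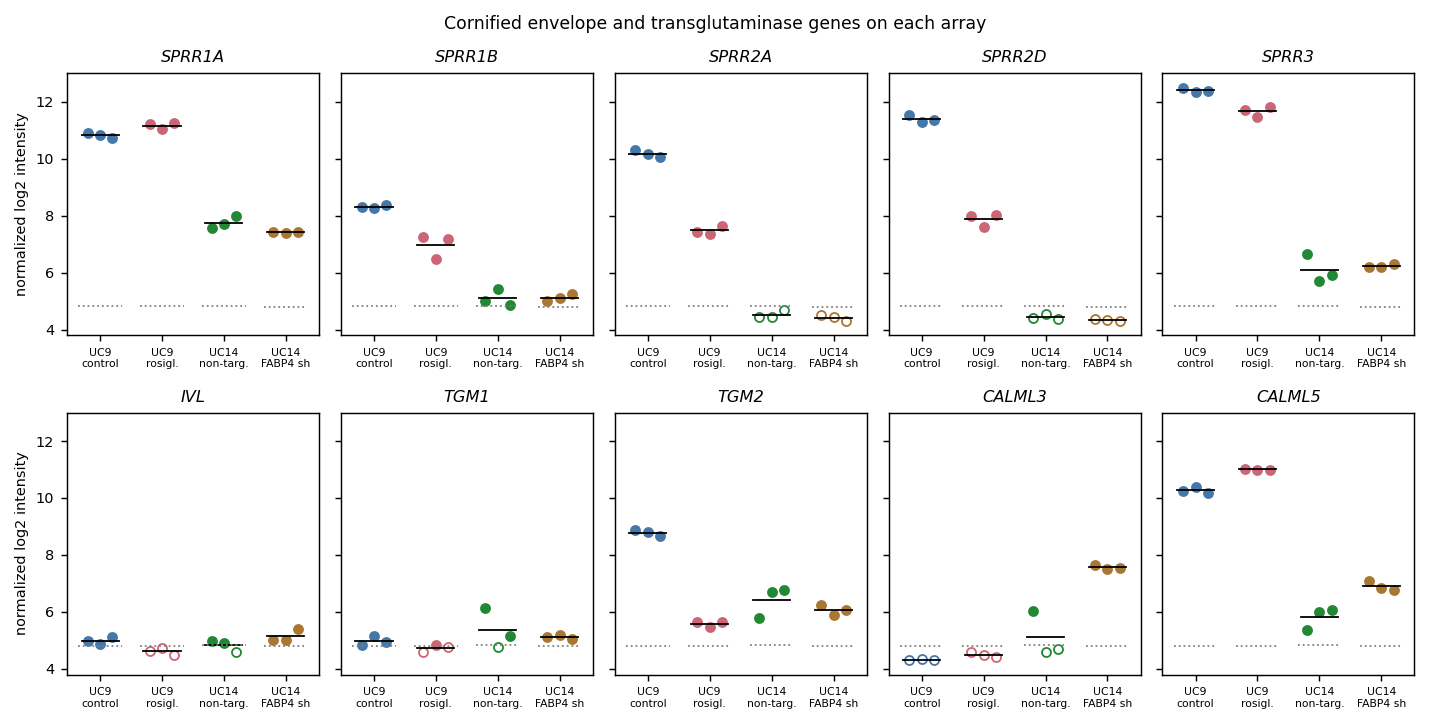
Normalized log2 intensity of the 10 genes on each of the 12 arrays (points), with the mean of 3 arrays (black line) and the detection limit of the arrays (dotted line). Filled points were detected at p below 0.05 and open points were not. The SPRR2A probe and the brighter SPRR2D probe dropped with rosiglitazone and were not detected on any UM-UC14 array, whereas CALML3 was brightest with FABP4 shRNA.

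SPRR2 proteins are short, repeat-rich precursors whose genes form the largest branch of the SPRR family. SPRR2D was read by 2 probes. On the probe that passed the filter (ILMN_2191967), the normalized log2 intensity was 11.54, 11.30 and 11.35 in UM-UC9 controls and 7.97, 7.61 and 8.04 with rosiglitazone. Every control array was far above every treated array, and the treated arrays stayed well above the detection limit, which was 4.77 to 4.88 on the 12 arrays. The log2 fold change was -3.53 (SE 0.12, adjusted p = 1.96e-10), which is 11.5-fold, the third lowest value of the 13293 genes. The other SPRR2D probe (ILMN_1746322) was detected on 1 of 12 arrays, at 4.34 to 4.81, and on none of the UM-UC9 controls, so the probes of this gene disagree. All other SPRR2D values are those of the probe that passed the filter.

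SPRR2A stood at 10.29, 10.16 and 10.07 in UM-UC9 controls and at 7.43, 7.37 and 7.65 with rosiglitazone. Again the groups were widely separated. The log2 change was -2.69 (SE 0.11, adjusted p = 1.48e-09), 6.46-fold, and ranked 11 from the lowest. SPRR2 genes are near-identical copies, and the probe sequences were not used here, so that how far each probe reads a single SPRR2 gene was not tested. Across the 12 arrays the probes of SPRR2A and SPRR2D correlated at r = 0.999 and shared every array.

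SPRR1B and SPRR1A encode closely related cross-bridging proteins and changed in opposite directions. SPRR1B was 8.30, 8.26 and 8.38 in controls and 7.24, 6.49 and 7.19 with rosiglitazone. All treated arrays were lower, and replicate 2 was the lowest. The change was -1.34 (SE 0.18, adjusted p = 0.000105), or 2.53-fold. SPRR1A was 10.91, 10.82 and 10.73 in controls and 11.20, 11.03 and 11.26 with rosiglitazone. The groups did not overlap, but the gap between them was narrow. The rise of 0.34 (SE 0.11, adjusted p = 0.0265), 1.27-fold, lost its call in 5 of 17 alternatives, with median scaling (adjusted p = 0.0735) and without control replicate 2 or 3 or rosiglitazone replicate 1 or 3 (at most 0.102).

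SPRR3, a family member of internal stratified epithelia such as the oesophagus, fell by less. Its values were 12.47, 12.36 and 12.37 in controls and 11.69, 11.47 and 11.81 with rosiglitazone. Each treated array was below each control array. The log2 fold change was -0.74 (SE 0.18, adjusted p = 0.00647), 1.67-fold.

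In chromosome order the SPRR genes run SPRR1A, SPRR3, SPRR1B, SPRR2D, SPRR2A, and then further SPRR2 copies. The log2 changes with rosiglitazone in that order were 0.34, -0.74, -1.34, -3.53 and -2.69. The 95% intervals of SPRR1A (0.11 to 0.58) and SPRR3 (-1.13 to -0.35) were apart, as were those of SPRR1B (-1.74 to -0.94), SPRR2D (-3.78 to -3.28) and SPRR2A (-2.93 to -2.45) from that of SPRR1A. SPRR2F, beyond SPRR2A in the same order, is not one of the 10 and changed by -2.69 on the log2 scale (SE 0.10, adjusted p = 7.88e-10). Its probe correlated at r = 0.998 with that of SPRR2A over the 12 arrays. Whether the SPRR2D, SPRR2A and SPRR2F probes read separate genes was not tested. Of 46 genes of the complex with a probe, 11 were tested, and among these 1 rose (SPRR1A) and 7 fell. Among all tested genes 36.0% passed. Most of these calls are those of members already described. Of the 5 tested genes of the complex outside the 10, 2 fell (SPRR2F and CRCT1) and none rose. The 7 falls include that of IVL, which no rosiglitazone array detected and which lost its call in 12 of 16 alternatives. The probes of SPRR2B, SPRR2E and SPRR2G were detected on no array.

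**Figure D2:**
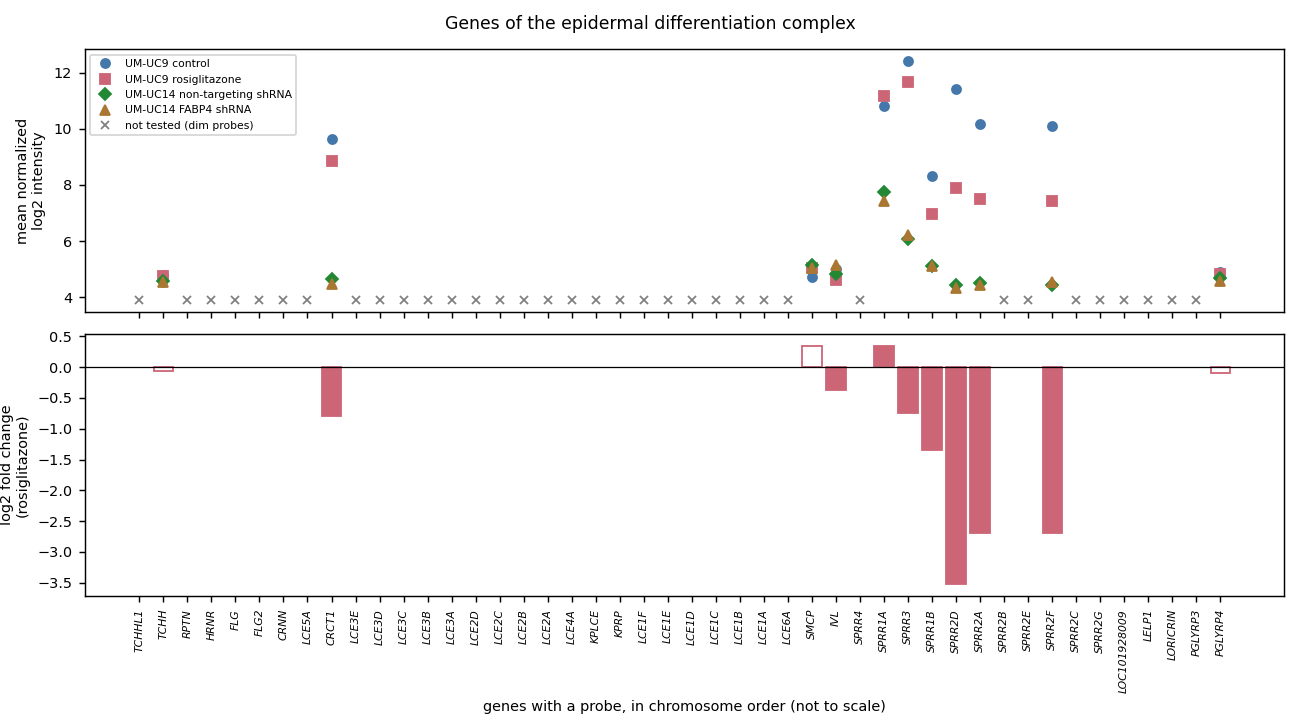
Genes of the epidermal differentiation complex with a probe, in chromosome order and not to scale. The upper panel gives the mean normalized log2 intensity of each group (3 arrays each) for the 11 tested genes, with crosses for genes not tested, and the lower panel gives the log2 fold change with rosiglitazone in UM-UC9, filled where the adjusted p was below 0.05. The bars deepen from SPRR1A (0.34) to SPRR2D (-3.53) and are shorter beyond it for SPRR2A and SPRR2F (-2.69 each). Whether the SPRR2 probes read separate genes was not tested.

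IVL, which encodes the involucrin scaffold, was close to the detection limit throughout. It was 4.97, 4.87 and 5.12 in UM-UC9 controls, all detected, and 4.63, 4.74 and 4.48 with rosiglitazone, none detected. The groups did not overlap, but the lower one gives only a bound, of at least 1.13-fold (adjusted p = 0.042). This call was lost in 12 of 16 alternatives, with an adjusted p of 0.155 at most.

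The transglutaminases differed from each other. TGM1 encodes the membrane-bound enzyme that keratinocytes use to build the envelope, and TGM2 a widely expressed tissue enzyme that also cross-links matrix proteins. The brightest TGM2 probe (ILMN_1705750) read 8.87, 8.80 and 8.68 in UM-UC9 controls and 5.63, 5.46 and 5.64 with rosiglitazone. Every treated array lay far below the controls, and also below every UM-UC14 array, the lowest of which was 5.80. The log2 fold change was -3.21 (SE 0.20, adjusted p = 1e-07), which is 9.22-fold and ranked 6 from the lowest of all genes.

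The other 2 probes of TGM2, annotated to another transcript of the gene, moved in the same direction. ILMN_1679267 read 7.41, 7.41 and 7.42 in controls and 4.96, 4.95 and 5.17 with rosiglitazone. The change was -2.39 (SE 0.10, adjusted p = 8.29e-10 over all kept probes, of which 28.7% passed). ILMN_1797236 read 5.91, 5.59 and 5.51 in controls and was detected on no rosiglitazone array, at least 1.81-fold lower (adjusted p = 2.33e-05). All 3 probes thus gave lower values with the drug.

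**Figure D3:**
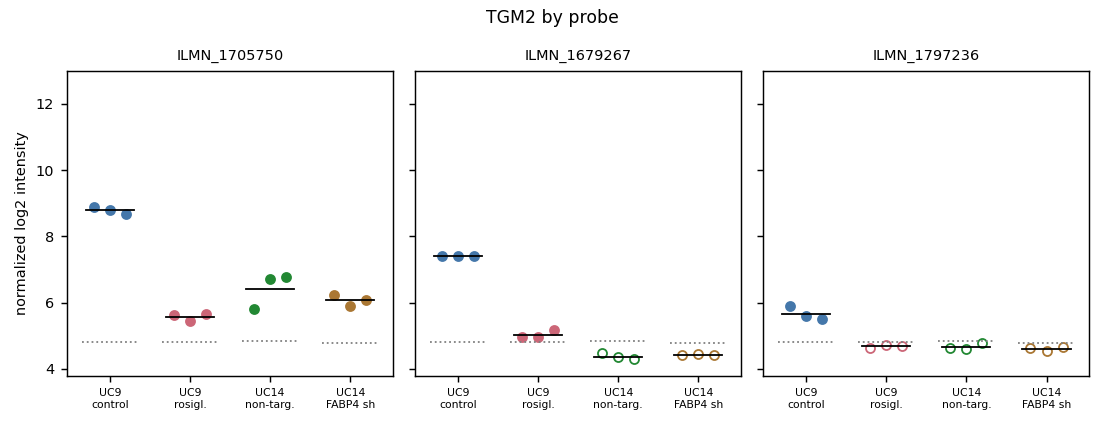
Normalized log2 intensity of the 3 TGM2 probes on each array, with symbols as in the plot of all 10 genes. All 3 were lower with rosiglitazone, and only ILMN_1705750 was detected in UM-UC14.

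TGM1 was dim on every array and passed no threshold. It was 4.85, 5.15 and 4.95 in UM-UC9 controls and 4.58, 4.85 and 4.76 with rosiglitazone, where 1 of 3 arrays detected it. These ranges touch at 4.85. The log2 change was -0.25 (95% interval -0.78 to 0.28, adjusted p = 0.47), so a change of this size was within the error.

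CALML5, a calmodulin-like skin protein of the late epidermal layers, rose. It stood at 10.24, 10.37 and 10.19 in controls and at 11.02, 10.99 and 11.00 with rosiglitazone. The treated arrays were tightly grouped and all higher. The log2 fold change was 0.73 (SE 0.16, adjusted p = 0.00255), 1.66-fold. CALML3, an epithelial calmodulin-like protein, was detected on no UM-UC9 array, at 4.31 to 4.36 in controls and 4.41 to 4.59 with the drug, so no fold is given.

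Beside the drug, the summed raw intensity of 7 fibroblast markers was 477 to 565 in controls and 588 to 598 with rosiglitazone, with COL3A1, PDGFRA and PDGFRB not detected. LUM, detected on every array, was the 1 of the 4 tested fibroblast markers that passed (0.75, adjusted p = 0.00491). The sum of 8 blood and endothelial markers was 646 to 715 and 789 to 820, with PTPRC, CD3E and VWF not detected, and of the 5 tested PECAM1 rose (0.53, adjusted p = 0.00362) and CD14 fell (-0.52, adjusted p = 0.0106). The sums of 15 epithelial markers (73031 to 89837 and 83372 to 87742) and of 4 adipocyte markers (333 to 386 and 259 to 348) overlapped. Single epithelial markers moved in both directions, 5 higher and 3 lower of 14 tested, where 36.0% of all genes passed. KRT20 (1.73), UPK1B (1.42), KRT7 (0.81), KRT18 (0.46) and KRT19 (0.34) rose. KRT5 (-2.10), FOXA1 (-0.89) and PPARG (-0.46) fell. Of the 2 adipocyte markers tested, LEP fell (-0.67, adjusted p = 0.00667). The part of these markers in the changes of the member genes was not tested.

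FABP4 shRNA in UM-UC14 changed 3 of the 10 genes: CALML3 rose by 2.44 and CALML5 by 1.08 on the log2 scale, and SPRR1A fell by 0.32. Among all genes 26.3% passed the threshold, 14.2% higher and 12.2% lower, so that the count of the 10 was near the share of all genes. Under median scaling SPRR1A lost its call. Group ranges were apart for 5 of the 10, the undetected SPRR2D among them, against 36.5% of all genes. The median log2 change was -0.04 for the 10 and 0.02 for all genes. Of the calls over all genes, 53.8% were higher with quantile normalization and 70.0% with median scaling.

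CALML3 stood at 6.04, 4.59 and 4.71 with non-targeting shRNA, where only replicate 1 was detected, and at 7.63, 7.51 and 7.53 with FABP4 shRNA. All 3 knockdown arrays were above all controls and alike among themselves, whereas the controls were spread over a wide range. The fitted rise was 2.44 (SE 0.27, adjusted p = 5.51e-05), 5.43-fold. CALML3 met the detection filter only through the knockdown arrays, where it was high. Each adjusted p given for this gene therefore depends on that selection and is no separate support for the rise. With the 2 undetected controls set to the detection limit, an alternative chosen after seeing the data, it was at least 5.01-fold, or 2.33 on the log2 scale. Rises of at least 1 log2 unit were found in 0.572% of genes. The size depended on control replicate 1. Without it no control detected CALML3, and the rise was at least 6.64-fold. With it as the only control, assumed to vary like the other groups, the rise was 1.51. The adjusted p was 0.00569 at most over the 17 alternatives with a test.

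CALML5 was 5.37, 6.00 and 6.08 with non-targeting shRNA and 7.09, 6.83 and 6.77 with FABP4 shRNA. The groups did not overlap, and replicate 1 was the lowest control array for this gene. The log2 fold change was 1.08 (SE 0.16, adjusted p = 0.000379), 2.11-fold. CALML5 was the 1 gene among the 10 that rose both with the drug in UM-UC9 and with the knockdown in UM-UC14.

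SPRR1A was 7.56, 7.72 and 7.97 with non-targeting and 7.43, 7.41 and 7.43 with FABP4 shRNA. The lowest control was close to the knockdown arrays. The fall of 0.32 (SE 0.11, adjusted p = 0.0458), 1.25-fold, lost its call in 10 of 18 alternatives. These included each knockdown array left out (adjusted p 0.101 to 0.109), non-targeting replicate 2 or 3 left out (0.0826 and 0.166) and median scaling (0.123).

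The other genes did not pass the threshold in UM-UC14. SPRR3 was 6.64, 5.70 and 5.92 with non-targeting and 6.20, 6.19 and 6.30 with FABP4 shRNA. Replicate 1 of the controls was above the knockdown arrays and the others below, for a change of 0.14 (adjusted p = 0.618). TGM2 was 5.80, 6.70 and 6.76 against 6.24, 5.90 and 6.07, again with control replicate 1 on the other side of the knockdown arrays, for a change of -0.35 (adjusted p = 0.21). TGM1 was 6.15, 4.78 and 5.14 against 5.13, 5.19 and 5.04, so that control replicate 1 was the highest of all arrays.

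SPRR1B, at 5.01, 5.44 and 4.86 against 5.00, 5.10 and 5.26, differed by 0.02 (95% interval -0.38 to 0.42). IVL was 4.98, 4.91 and 4.61 against 5.01, 5.03 and 5.40. All knockdown arrays of IVL were above the controls by a narrow margin, a difference of 0.31 that missed the threshold (adjusted p = 0.0956). SPRR2A and the SPRR2D probe that passed the filter were detected on no UM-UC14 array, at 4.30 to 4.67 and 4.31 to 4.54, so that a change with the knockdown was not measurable.

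Without non-targeting replicate 1, 6 of the 10 genes passed in UM-UC14, as did 5248 of all 13293 genes. SPRR3 then differed by 0.42 (adjusted p = 0.00946), IVL by 0.39 (0.04) and TGM2 by -0.66 (0.000457), while CALML3, CALML5 and SPRR1A kept their calls. The summed raw intensity of the fibroblast markers was 659 to 789 with non-targeting and 998 to 1029 with FABP4 shRNA, with 2 of the 7 detected on each of these arrays and COL3A1, PDGFRA and PDGFRB on none. The detected markers, COL1A1 (0.90, adjusted p = 0.00105) and LUM (0.65, adjusted p = 0.0166), both rose with the knockdown. Of 14 tested epithelial markers 2 rose, among them KRT5 by at least 2.83-fold, and 4 fell (3 and 1 under median scaling), where 26.3% of all genes passed. Of 5 tested blood and endothelial markers CDH5 fell (-1.70, adjusted p = 0.00398). Their part in the changes was not tested.

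**Figure D4:**
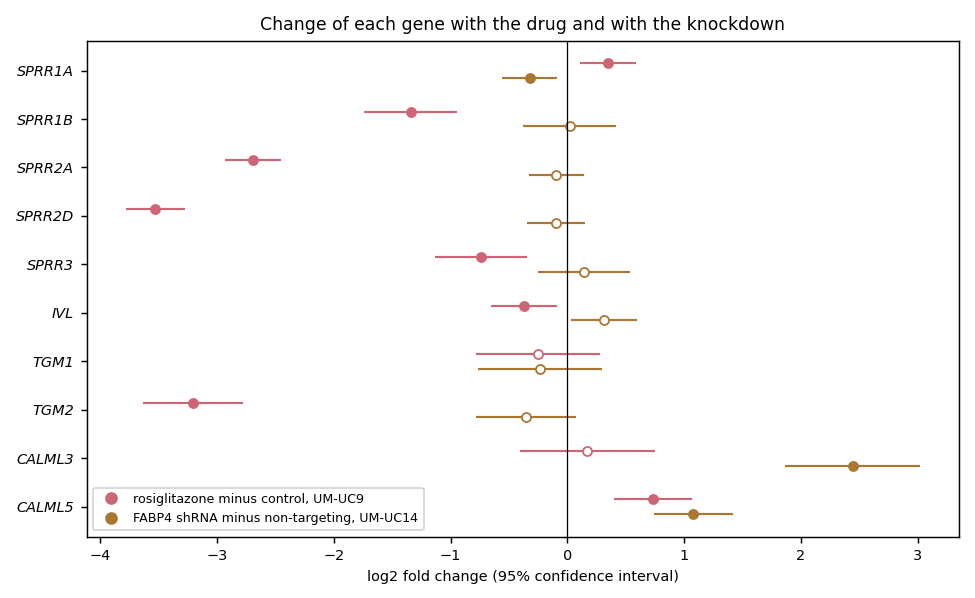
Log2 fold change of each gene with its 95% confidence interval, for the drug in UM-UC9 and the FABP4 knockdown in UM-UC14, each against its control (3 arrays per group). Filled points had an adjusted p below 0.05. SPRR2D (-3.53), TGM2 (-3.21) and SPRR2A (-2.69) lie far to the left for the drug, and CALML3 (2.44) to the right for the knockdown.

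The change with the drug in UM-UC9 was tested against the change with the knockdown in UM-UC14 in the same model. Both treatments alter FABP4, in opposite directions and in different lines, so that treatment and line cannot be told apart. The changes differed for 8 of the 10 genes, 1 higher and 7 lower with the drug, where 41.5% of all genes passed (19.1% higher and 22.4% lower). The largest differences were those of SPRR2D (-3.43), TGM2 (-2.85, adjusted p = 9.18e-06), SPRR2A (-2.60) and CALML3 (-2.27, adjusted p = 0.000448). SPRR1A was the gene with a higher change with the drug, by 0.67 (adjusted p = 0.00424). For CALML5 the difference was -0.35 (95% interval -0.82 to 0.13, adjusted p = 0.227). For SPRR2A, SPRR2D and CALML3, 1 of the 2 changes was taken between arrays that did not detect the gene. For all genes, 46.0% of these calls were higher with quantile normalization and 33.1% with median scaling, and the median difference moved from -0.04 to -0.15.

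UM-UC14 with non-targeting shRNA was lower than untreated UM-UC9 in 7 of the 10 genes and higher in none, at an adjusted p below 0.05 and a fold of at least 2, which 25.9% of all genes passed (13% higher and 13% lower). Group ranges were apart for 8 of the 10, against 68.1% of all genes. The UM-UC9 cells carried no shRNA, so line and shRNA cannot be told apart, and this comparison shares its UM-UC9 arrays with that of the drug. Median scaling moved the median difference of all genes from -0.02 to -0.15 and the calls that were higher from 1724 of 3449 to 1402 of 3534, and 7 of the 10 were lower under it too.

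SPRR2D was at least 94.6-fold lower in UM-UC14 and SPRR2A at least 40.5-fold lower, as bounds against the detection limit. The log2 difference of UM-UC14 from UM-UC9 was -6.31 for SPRR3 (SE 0.18, adjusted p = 9.16e-13), -4.45 for CALML5, -3.21 for SPRR1B and -3.07 for SPRR1A. For the brightest TGM2 probe it was -2.37 (SE 0.20, adjusted p = 1.15e-07). These SPRR genes and CALML5 were thus lower in UM-UC14 than in UM-UC9. SPRR1A was still detected on every UM-UC14 array, at 7.41 to 7.97.

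CALML3 was the exception to that order, since it was detected only in UM-UC14. In the non-targeting group 1 of 3 arrays detected CALML3, replicate 1 at 6.04, and without that array neither this group nor UM-UC9 detected it. The difference of the non-targeting group from UM-UC9 controls was under the fold threshold (adjusted p = 0.0174), and no fold is given. IVL (-0.16, adjusted p = 0.309) and TGM1 (0.37, adjusted p = 0.195) did not pass. With rosiglitazone, SPRR2A and SPRR2D remained above UM-UC14, where they were undetected, while TGM2 went below it on its brightest probe. On the probe ILMN_1679267, TGM2 stayed above UM-UC14, at 4.95 to 5.17 with rosiglitazone and undetected at 4.29 to 4.47 in UM-UC14.

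The order of group means separated the genes into a few patterns. SPRR1B, SPRR2A, SPRR2D and SPRR3 were highest in UM-UC9 controls, then with rosiglitazone, and their UM-UC14 groups did not pass the test of a difference. SPRR1A and CALML5 were highest with rosiglitazone, then in UM-UC9 controls, and these neighbours did not overlap. On its brightest probe TGM2 was highest in UM-UC9 controls and lowest with rosiglitazone, and its UM-UC14 groups overlapped. Its other probes were detected on no UM-UC14 array, and of these only ILMN_1679267 was detected with rosiglitazone. For IVL and TGM1 the ranges of neighbouring groups overlapped throughout, and for CALML3 only the FABP4 shRNA group lay apart above the detection limit.

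The related lists are given beside the share of all genes that passed: 36.0% with rosiglitazone, 26.3% with the knockdown and 25.9% between the lines. Among the other genes of the epidermal differentiation complex, 37 had a probe and 5 were tested. SPRR2F and CRCT1 fell with rosiglitazone, and none passed with the knockdown. How far the SPRR2F probe reads SPRR2F alone was not tested. CRCT1, a cysteine-rich gene of the complex, fell by 0.79 on the log2 scale (SE 0.11, adjusted p = 0.000154). In UM-UC14 both were undetected, at least 38.5-fold and 27.7-fold lower than in UM-UC9.

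Of 13 tested scaffold and precursor genes outside the family, 4 rose and 4 fell with rosiglitazone, and 1 rose and 2 fell with the knockdown. SCEL, which encodes the envelope precursor sciellin, had a mean of 8.48 in UM-UC9 controls and 6.17 with rosiglitazone. Its log2 change was -2.31 (SE 0.14, adjusted p = 6.19e-08). CSTA, which encodes the protease inhibitor cystatin A, fell with FABP4 shRNA from 7.27 to 5.94 (change -1.33, SE 0.13, adjusted p = 2.3e-05). In UM-UC14 against UM-UC9, 2 of the 13 were higher, CSTA at least 5.46-fold and CNFN with a log2 difference of 2.89. Another 4 were lower: SCEL at least 12.6-fold, DMKN at least 5.07-fold, PI3 at least 3.83-fold and the desmosomal gene DSP with a log2 difference of -1.94.

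Among the 3 other transglutaminase genes tested, TGM5, an epidermal enzyme, rose with both treatments. Its mean was 8.64 in UM-UC9 controls and 10.26 with rosiglitazone, a change of 1.62 (SE 0.13, adjusted p = 8.65e-07), and it was 10.13 with non-targeting and 10.94 with FABP4 shRNA, a change of 0.81 (adjusted p = 0.000758). TGM5 thus moved opposite to TGM2 with the drug. TGM5 was also 1.49 log2 units higher in UM-UC14 than in UM-UC9. TGM3 and TGM6 passed in none of these comparisons. CALML4, the 1 other calmodulin-family gene tested, rose by 0.66 log2 units with the knockdown (adjusted p = 0.00643). It was 1.12 log2 units higher in UM-UC14, a call of the lines that median scaling ended.

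Of 14 tested genes of envelope lipids and proteolysis, 3 rose and 2 fell with rosiglitazone, and 1 rose and 2 fell with the knockdown. Over all genes 36.0% and 26.3% passed. CASP14, the caspase of cornifying cells, rose by 1.53 on the log2 scale (SE 0.21, adjusted p = 0.000108). ELOVL4, which lengthens the fatty acids of skin ceramides, rose by 1.23 (adjusted p = 9.37e-07). The membrane protease TMPRSS11E fell by 1.86 (adjusted p = 2.01e-07). In UM-UC14, CYP4F22, a hydroxylase of ceramide synthesis, was at least 75.4-fold higher than in UM-UC9. The protease gene PRSS8 differed by -3.13 on the log2 scale, and TMPRSS11E was at least 3.36-fold lower and ABCA12 at least 2.12-fold lower.

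Of 32 tested transcription factors of squamous differentiation, 10 rose and 4 fell with rosiglitazone, and 5 rose and 13 fell with the knockdown. Under median scaling these counts were 9 and 5 with the drug and 8 and 10 with the knockdown. KLF4, which drives terminal differentiation of the epidermis, rose from 8.84 to 9.98 with rosiglitazone (change 1.14, SE 0.19, adjusted p = 0.000421). With FABP4 shRNA, KLF4 fell from 9.26 to 8.31 (change -0.95, SE 0.19, adjusted p = 0.0028). ELF3, an epithelial ETS factor known to bind the SPRR2A promoter, rose from 10.81 to 11.69 with rosiglitazone (change 0.87, SE 0.22, adjusted p = 0.00671), where SPRR2A fell. It fell from 11.60 to 10.00 with FABP4 shRNA (change -1.60, SE 0.22, adjusted p = 0.000255), where SPRR2A was undetected in both groups. Against UM-UC9, 5 were higher and 4 lower in UM-UC14 (3 and 6 under median scaling). The widest gaps were those of ELF5 (-2.93), PRDM1 (-2.67), GRHL2 (-2.43), ZNF750 (-2.37), PAX9 (2.24) and TFAP2A (1.90).

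**Figure D5:**
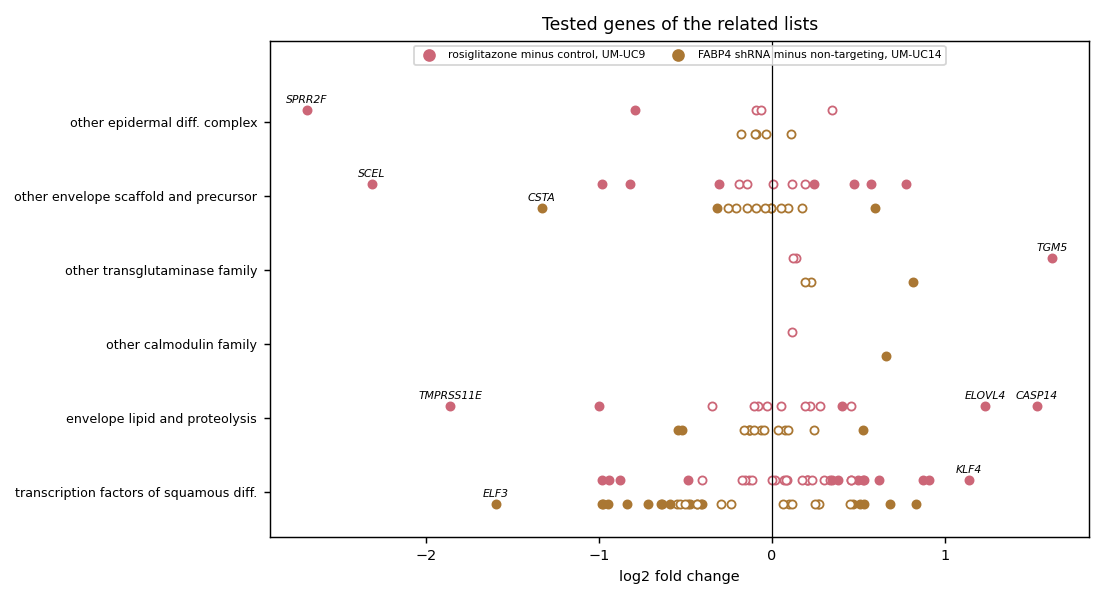
Log2 fold change of every tested gene of the 6 related lists, with rosiglitazone in UM-UC9 and with FABP4 shRNA in UM-UC14. Each point is 1 gene, filled where its adjusted p was below 0.05, and genes that passed with a change of at least 1 are named. SPRR2F (-2.69) and SCEL (-2.31) lie farthest to the left and TGM5 (1.62) and CASP14 (1.53) farthest to the right.

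The genes outside the set with the most similar profile are given by Pearson correlation of normalized log2 intensity over the 12 arrays, which share the difference between the lines. SPRR2D was most like SPRR2F (r = 0.998), SCEL (0.994) and DEFB4A (0.994). Whether the SPRR2D and SPRR2F probes read separate genes was not tested. SPRR1B was most like SSBP4 (0.994), OLFM4 (0.989) and ZNF347 (0.989). SPRR1A was nearest to BPGM (0.998) and SPRR3 to MAGEA6 (0.998), while TGM2 was nearest to SPRY2 (0.971), OAS3 (0.962) and ANTXR2 (0.960). The nearest to CALML5 were ELF5 (0.996), COL4A1 (0.996) and ZNF750 (0.994), and the nearest to CALML3 was DPYSL3 (0.990).

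Among the members themselves the 5 SPRR genes correlated at 0.868 to 0.999 over the 12 arrays. CALML5 lay with them, at 0.968 with SPRR1A and 0.827 with SPRR2D. TGM2 correlated at 0.727 with SPRR2D and 0.323 with SPRR1A, and CALML3 at -0.765 with SPRR1A. These values rest largely on the gap between the lines and carry no test.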

How the data were processed

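The members and related lists were chosen with earlier results of these data known. Per the labels, biotin-labelled cRNA from total RNA was hybridized to 12 arrays. The authors deposited raw bead intensity per probe and array with a detection p-value, the share of negative controls at least as bright, and log2 quantile-normalized values; the scanner software is not named in the labels. From the raw table, limma 3.58.1 in R 4.3.3 applied normexp background correction from the detection p-values (offset 16), quantile normalization and log2. Quantile normalization hides a shift of all genes in 1 direction. Of 25176 probes kept (detection p below 0.05 on at least 3 arrays), 18384 named 1 gene by the array annotation, and the brightest probe stood for each of 13293 genes. A single limma model with 4 group means used all 12 arrays, with Benjamini-Hochberg adjustment over all genes. SE are those of the model. A bound uses the lowest signal of detected probes on each array in place of an undetected value. Precision is limited by 3 arrays per group. Named genes are the 10 members, list genes called with an absolute log2 change of at least 1 (at most 6 per list and comparison) and the 3 most similar genes of a member, and others were chosen after their values were seen. The model was tested on simulated data. Motif matches are exact, and promoter sequences come from RefSeq (GRCh38.p14).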

Additional observations from a re-analysis of the deposited data

How the results depend on the processing

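Up to 23 alternatives were run for each comparison. The falls of SPRR2D, SPRR2A, TGM2, SPRR1B and SPRR3 and the rise of CALML5 with rosiglitazone, and the rises of CALML3 and CALML5 with FABP4 shRNA, kept their direction and their call under each alternative that could be run; SPRR2A, SPRR2D and CALML3 drop out where detection on all 12 arrays is asked. With that filter, 5 members passed with rosiglitazone and 4 in the difference of the changes, with fewer members tested, and 2270 genes in place of 3449 differed between the lines. With FABP4 shRNA, 1779 genes in place of 3502 passed when only its own groups entered the fit and 1945 when replicate 1 alone stood for the non-targeting group, and arrayWeights gave 5 members in place of 3. With that lone control, whose spread is assumed to be that of the other groups, the difference of the changes of TGM1 turned to 0.78 (adjusted p = 0.00491), and those of SPRR3 and IVL lost their calls; the cause was not tested. Leaving out 1 array at a time gave 3590 to 4261 genes and 6 to 8 members with rosiglitazone, 2377 to 5248 genes and 2 to 6 members with FABP4 shRNA (the highest of each without non-targeting replicate 1), 4747 to 6753 genes and 8 members for the difference, and 3346 to 3703 genes and 7 to 8 members between the lines. The labels do not say whether same-numbered arrays were prepared together. Their deviations correlated at -0.09 to 0.15, which cannot settle it. A replicate block gave 4705 genes with rosiglitazone, 3368 with FABP4 shRNA, 5411 for the difference and 3449 between the lines, and 7, 2, 8 and 7 members; IVL with rosiglitazone (adjusted p = 0.0639) and SPRR1A with FABP4 shRNA (0.0586) lost their calls. IVL, TGM1 and CALML3 lay near the detection limit in several groups, which limits what can be said of them.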
